A study of Saccharomyces cerevisiae with 9 samples.

Results

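The 300 gene bodies described here are those that stood highest over input chromatin in the first pulldown of Pgk1, the control protein of a chromatin immunoprecipitation study (ChIP-seq) in budding yeast. They were chosen by the log2 ratio of the share of reads in Pgk1 pulldown replicate 1 to the share in the Pgk1 input, with 2 counts added to each, among 6668 gene identifiers that had 300 to 1000 counts in all 3 input libraries. Genes for tRNA (299 identifiers) were left out. The members make up 4.50% of the identifiers in this count range, out of 7036 gene body windows of 500 bp in all.

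W303 cells in log phase at 30 °C were moved to medium without glucose for 10 min. All groups share this starvation, so nothing here compares starved with fed cells. Each of 3 strains carried a TAP tag (tandem affinity purification) on Rvb1, Rvb2 or Pgk1, and the tagged protein was recovered from sonicated lysate with rabbit IgG. Each strain gave 2 pulldowns and 1 input, 9 libraries in all, and each was counted over promoter windows and over gene body windows. Nothing in the labels states whether a strain's pulldowns were taken from different cultures. The spread between libraries, on which every p-value rests, may therefore be technical. No pulldown from an untagged strain was analysed here.

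Pgk1 is phosphoglycerate kinase, a cytosolic enzyme of glycolysis with no established role on chromatin, which is why it can serve as a control bait. Rvb1 and Rvb2 are AAA+ ATPases that form a ring within chromatin remodellers such as INO80 and SWR1 and help to assemble small nucleolar ribonucleoproteins. In budding yeast, control pulldowns are known to recover heavily transcribed genes above input, and glycolytic genes, ribosomal DNA and genes of RNA polymerase III are common examples. In cells short of glucose, genes for high-affinity glucose transport, for reserve carbohydrates and for the general stress response are known to be induced.

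Pgk1 pulldown replicate 1, which chose the members, was also the shallowest library, with 782398 counts over the gene body windows. Replicate 2 held 2533445, the Rvb pulldowns between 1037258 and 1568654, and the inputs between 4398632 and 4701031. No window in a pulldown or an input held more than 1151 counts. A window of 500 bp offers 1148 distinct start positions and strands to reads of 75 bases. High counts would be compressed if at most 1 read were kept for each, which the sources used here do not state. The median member reached 59.1% to 63.5% of 1148 in an input and 21.2% to 37.9% in a pulldown. Between the Rvb1 and Rvb2 strains, the inputs gave a chi-square of 0.558 per degree of freedom, which is under Poisson noise. Counting at most 1 read per position and strand would give 0.450 at this filling. Against the Pgk1 input the Rvb inputs gave 0.754 and 0.738, where such counting would give 0.438 and 0.432. The Rvb inputs were thus closer to each other than to the third input. They were kept as 2 libraries, and whether they are independent was not tested. Pulldown replicates differed far more, at 6.82 (Pgk1), 5.38 (Rvb1) and 3.68 (Rvb2).

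The values that chose the members ran from a log2 ratio of 2.35 at the external transcribed spacer ETS2-1 of the ribosomal DNA down to 0.62. Next in rank were the hexose transporter genes HXT6 (2.34) and HXT7 (2.33), the enolase gene ENO1 (2.12), the stress gene HOR7 (2.11), SPO24 (2.02), the hexokinase gene HXK1 (1.99), TDH3 for glyceraldehyde-3-phosphate dehydrogenase (1.96), ADH1 for alcohol dehydrogenase (1.92) and SCR1 (1.91), which encodes the RNA of the signal recognition particle. The median was 0.90. ALD6, SNR190 and YNL134C stood just inside the limit of 300 and DMO1, SNR52 and ADH2 just outside, all at 0.62, so no gap in the values marks the edge. These values describe the choice and are not tested.

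The second Pgk1 pulldown, which had no part in the choice, shared part of the ranking. Of the 300 members, 169 (56.3% of each list) were also among the 300 identifiers highest in Pgk1 pulldown replicate 2 over the Rvb inputs, and the list size is 4.50% of the count range. Between 99 and 186 members were among the 300 highest of each Rvb pulldown, that is 33.0% and 48.0% in the first Rvb1 and Rvb2 pulldowns and 51.7% and 62.0% in the second. A group of 53 members stood among the 300 highest in all 5 pulldowns that the ranking had not used, against 1 other identifier in the count range. At the other end, 68 members stood among the 300 highest in none of them.

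Relative to the mean of the Rvb inputs, the members' median log2 at gene bodies was 0.18 in Pgk1 pulldown replicate 2, 0.67 and 0.58 in the Rvb1 pulldowns and 0.73 and 0.53 in the Rvb2 pulldowns. The same medians over all identifiers in the count range were -0.04, then -0.20 and -0.13, then -0.19 and -0.10. The gene bodies picked for a high Pgk1 ratio therefore stood higher over input in each Rvb pulldown than in the second Pgk1 pulldown. That pulldown was also the flattest of these libraries. Its other identifiers in the count range ran from -0.18 to 0.10 (5th to 95th percentile). The same range was -0.37 to 0.26 in Rvb2 replicate 2 and -1.03 to 0.76 in Rvb1 replicate 1, so sizes are not on a like scale between libraries. The number of members above the mean input was 276 of 300 in Pgk1 replicate 2, 285 and 289 in Rvb1 and 295 and 298 in Rvb2. The medians were lower in the last members than in the first in each of these libraries. In the first 75 members they were 1.11 and 0.79 (Rvb1), 1.09 and 0.70 (Rvb2) and 0.30 (Pgk1 replicate 2), and in the last 75 they were 0.47, 0.41, 0.53, 0.35 and 0.09 in the same order.

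**Figure D1:**
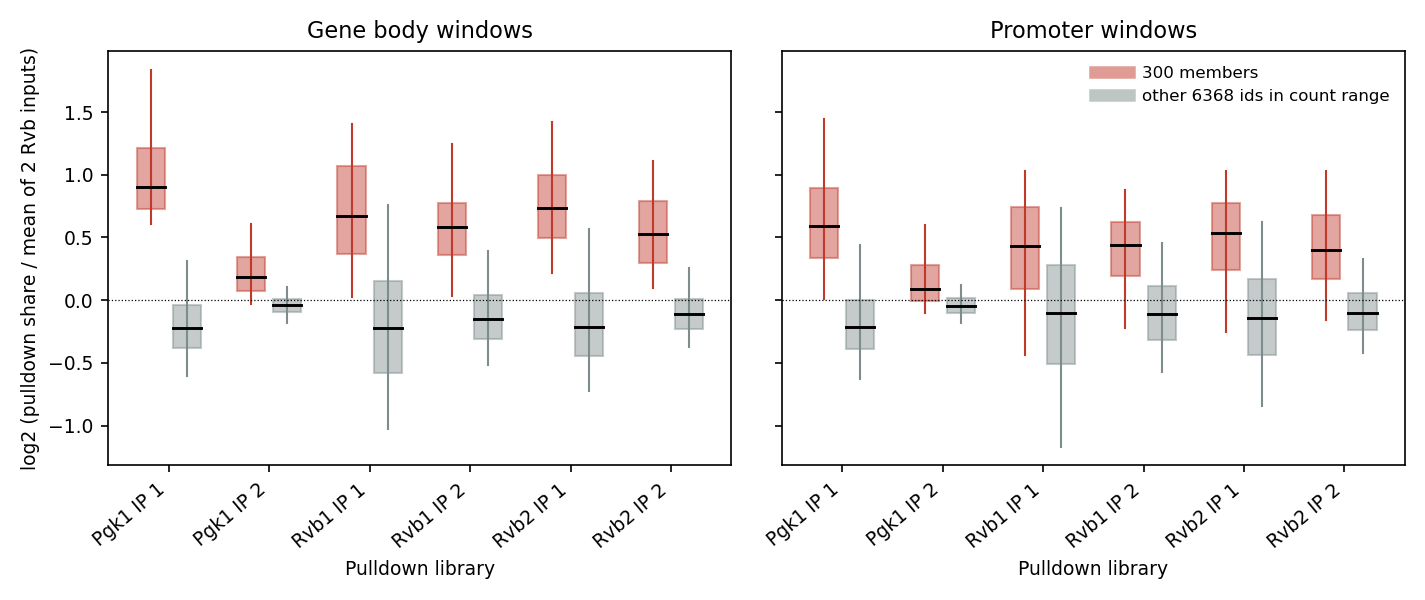
Log2 of each pulldown's share of reads over the mean of the 2 Rvb inputs (y axis) for the 300 members and the other 6368 identifiers in the count range, in gene body windows (left) and promoter windows (right); the line in a box is the median, the box spans the middle quartiles and the whiskers the 5th to 95th percentiles. In gene bodies the member medians lie at 0.18 in Pgk1 pulldown replicate 2 and between 0.53 and 0.73 in the Rvb pulldowns; Pgk1 pulldown replicate 1 chose the members and is shown for reference.

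**Figure D2:**
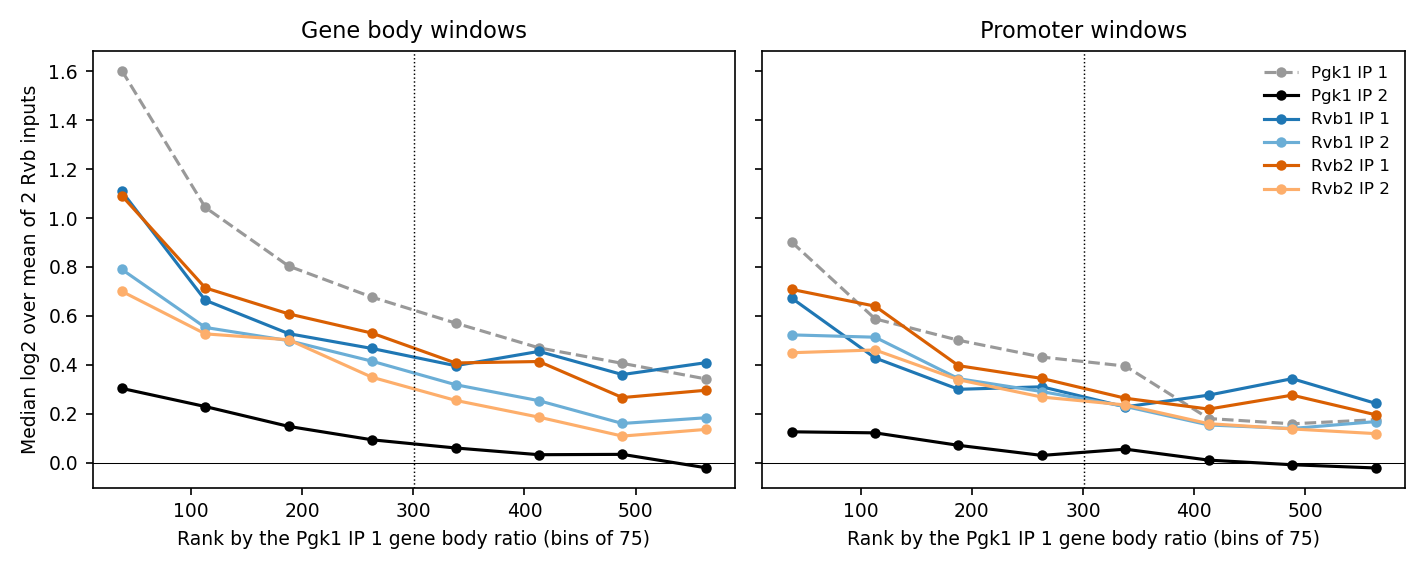
Median log2 over the mean Rvb input (y axis) in bins of 75 identifiers ordered by the ratio that chose the members (x axis, rank), for each pulldown library, in gene bodies (left) and promoters (right); the dotted vertical line marks the limit of 300. Medians of the Rvb pulldowns lie at 0.70 to 1.11 in the first bin and at 0.35 to 0.53 in the last bin of members; in the 4 bins past the limit they lie between 0.11 and 0.45 and do not fall steadily.

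Glycolysis and alcoholic fermentation supplied the largest group among the lists of protein-coding genes, with 15 of the 24 listed genes in the count range: ENO1, HXK1, TDH3, ADH1, FBA1, TDH1, GLK1, TDH2, PGK1, GPM1, ENO2, CDC19, TPI1, PDC1 and HXK2. The 9 listed genes that were no members include PFK1 and PFK2 for phosphofructokinase, PGI1, ADH2 and PYK2. ENO1 stood at 460 and 388 CPM (counts scaled to a table total of 1000000) in the Rvb1 pulldowns, 469 and 313 in the Rvb2 pulldowns, 225 in Pgk1 pulldown replicate 2 and 162 to 170 in the 3 inputs. All 4 Rvb pulldowns lay above Pgk1 replicate 2, and that above all inputs. ENO1 was higher over the Rvb inputs by a log2 of 1.52 ± 0.30 (SE, adjusted p 0.0244, edgeR) in Rvb1, with 1.39 ± 0.30 in Rvb2 (0.0651) and 0.51 ± 0.36 in Pgk1 replicate 2 (adjusted p 1). HXK1, a hexokinase whose gene is known to be induced when glucose runs out, stood at 333 and 268 CPM in Rvb1, 310 and 235 in Rvb2, 195 in Pgk1 replicate 2 and 158 to 161 in the inputs. It showed the same order of groups with no overlap.

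PGK1, the gene of the control bait itself and one named here after its values were seen, held rank 39. Its gene body stood at 398 and 308 CPM in Rvb1, 386 and 304 in Rvb2, 200 in Pgk1 replicate 2 and 167 to 171 in the inputs. The Rvb pulldowns were thus above the second pulldown of Pgk1 at the gene of Pgk1. Its neighbour YCR013C, an identifier with no entry in the reference table, held rank 29 and a like profile, with 448 and 358, then 450 and 315, then 188 and 161 to 169 CPM. Glycolytic members had a median log2 of 1.10 over the Rvb inputs in Rvb1 (14 of 15 called higher, beside 18.8% of all windows). Their median was 0.90 in Rvb2 (none called, beside 0.597%, edgeR) and 0.33 in Pgk1 replicate 2 (none called). HXK2, the hexokinase of glucose-grown cells, was the member left uncalled in Rvb1, at 0.29 ± 0.15 (adjusted p 0.138, edgeR). Over all 24 listed glycolysis and fermentation genes the Rvb1 median was 0.95. Of these 14 were called higher and 3 lower, beside 18.8% and 14.3% of all windows.

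Hexose transporters gave 5 members of 19 listed genes in the count range, HXT6, HXT7, HXT2, HXT3 and HXT4. HXT6 and HXT7 are neighbouring, nearly identical genes for high-affinity transporters, so their counts may share reads. HXT7 stood at 511 and 497 CPM in Rvb1, 560 and 409 in Rvb2, 255 in Pgk1 replicate 2 and 188 to 190 in the inputs. No Rvb value came near the Pgk1 value, which was itself above each input. HXT7 rose by a log2 of 1.55 ± 0.30 in Rvb1 (adjusted p 0.0232, edgeR) and 1.48 ± 0.30 in Rvb2 (0.0441), and HXT6 by 1.59 ± 0.30 (0.0212) and 1.56 ± 0.30 (0.0332). All 5 transporter members were called higher in Rvb1, beside 18.8% of all windows, and these 2 also in Rvb2, beside 0.597%. Over all 19 listed genes the median was -0.30 in Rvb1, with 5 called higher and 6 lower, beside 18.8% and 14.3% of all windows.

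Reserve carbohydrate genes gave 9 members of 24 in the count range. They cover the path to glycogen (PGM2, UGP1, GSY1, GSY2, GLC3), its breakdown by GPH1, and trehalose synthesis (TPS1, TPS2, TSL1). Their median log2 over the Rvb inputs at gene bodies was 0.79 in Rvb1 (8 of 9 called higher, beside 18.8% of all windows). It was 0.68 in Rvb2 and 0.22 in Pgk1 replicate 2, none of the last called. Over all 24 listed genes the Rvb1 median was 0.20, with 9 called higher and 2 lower, beside 18.8% and 14.3% of all windows. TPS2, for trehalose-6-phosphate phosphatase, stood at 245 and 194 CPM in Rvb1, 228 and 186 in Rvb2, 172 in Pgk1 replicate 2 and 149 to 157 in the inputs. GSY2, for the main glycogen synthase, went another way. It stood at 438 CPM in the Pgk1 pulldown that chose it, but at 171 in replicate 2, at 177 and 139 in Rvb1, at 139 and 154 in Rvb2 and at 148 to 157 in the inputs. Its Rvb pulldowns overlapped the inputs, with log2 changes of 0.22 ± 0.16 (adjusted p 0.255) and 0.09 ± 0.16 (0.704). Its promoter, in contrast, held 222 and 192 CPM in Rvb1 and 236 and 175 in Rvb2 against 148 to 154 in the inputs, with a log2 of 0.55 ± 0.19 in Rvb1 (adjusted p 0.0437, edgeR).

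General stress genes gave 9 members of 24 in the count range and chaperones 8 of 30. HOR7, a small stress-induced gene, stood at 352 and 255 CPM in Rvb1, 338 and 230 in Rvb2, 172 in Pgk1 replicate 2 and 134 to 137 in the inputs, and rose by 1.32 ± 0.29 in Rvb1 (adjusted p 0.0252, edgeR). SSA1, for a cytosolic Hsp70, stood at 288 and 210 CPM, then 297 and 217, then 155 and 132 to 136. The Rvb pulldowns of both genes lay above Pgk1 replicate 2 with no overlap. Counting shared reads between SSA1 and its close copy SSA2 cannot be settled here. CTT1, for the cytosolic catalase, had Rvb values of 223 to 304 CPM but 150 CPM in Pgk1 replicate 2, below all 3 inputs at 152 to 161. Of the stress members 7 of 9 were called higher in Rvb1 (median 0.71), and of the chaperone members 4 of 8 (median 0.61), beside 18.8% of all windows. HSP12, whose promoter is widely used as a stress reporter, was among the uncalled, with a gene body log2 of 0.36 ± 0.18 (adjusted p 0.115). Over all 24 listed stress genes the Rvb1 median was 0.40, with 9 called higher and none lower. Over all 30 listed chaperones it was 0.17, with 6 called higher and 3 lower, beside 18.8% and 14.3% of all windows.

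Histone genes were the most completely represented list of protein-coding genes, with 7 of 10 in the count range: HHT1, HHT2, HHF1, HHF2, HTA1, HTB1 and HTB2. HTA2, the variant gene HTZ1 and the linker gene HHO1 were no members. HTA1 stood at 347 and 286 CPM in Rvb1, 301 and 236 in Rvb2, 177 in Pgk1 replicate 2 and 148 to 155 in the inputs, with no overlap between these groups. All 7 were called higher in Rvb1, beside 18.8% of all windows, with a median log2 of 0.79. None was called in Rvb2 at 0.60, beside 0.597% of all windows, or in Pgk1 replicate 2 at 0.18. Pairs such as HHT1 and HHT2 encode the same protein, and their windows may share reads.

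Other lists had few or no members, where members are 4.50% of all identifiers in the count range. At that share a short list can hold none. None of the 138 cytosolic ribosomal protein genes in the count range was a member, nor any of 67 mitochondrial ribosomal protein genes, 38 ribosome biogenesis genes, 34 meiosis genes, 32 proteasome genes, 32 sterol and lipid genes, 30 genes of RNA polymerase II and its general factors, 29 mating genes or 7 galactose genes. Translation factors gave 3 of 30 (10%: TEF1, TEF2 and HYP2) and cell wall genes 3 of 40 (7.5%: SED1, HSP150 and CCW12). Respiration gave 3 of 48 (6.25%: CIT1, ATP2 and QCR6) and amino acid synthesis 1 of 60 (1.67%: ILV5). Of the seripauperin and COS genes near chromosome ends 2 of 33 (6.06%) were members. Actin (ACT1) was the only member among 25 genes (4%) for remodellers that contain Rvb1 and Rvb2. Of these lists with members, only amino acid synthesis and the remodellers lay below 4.50%. Most of the glycolysis list was thus inside the limit and the whole cytosolic ribosomal protein list outside it.

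**Figure D3:**
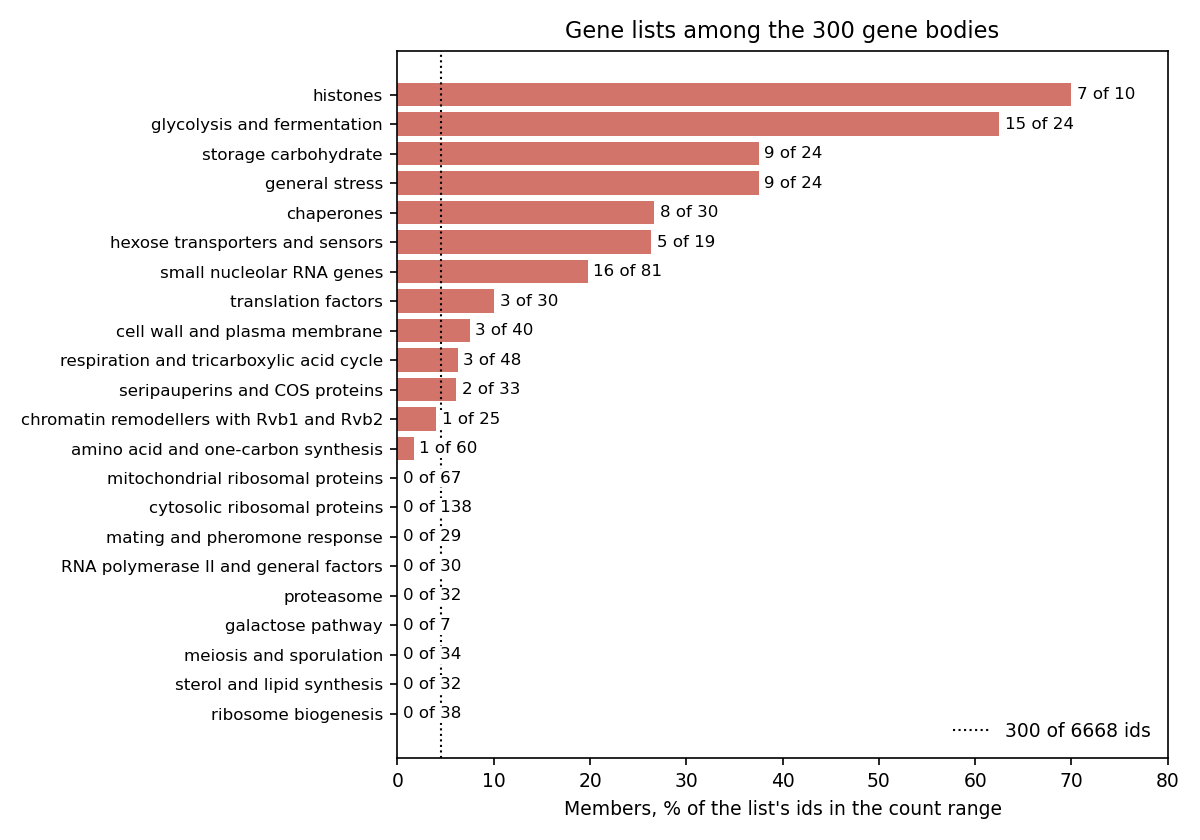
Share of each gene list's identifiers in the count range that are among the 300 members (x axis, percent; y axis, list), with the counts printed beside each bar; the dotted line is the share of all identifiers, 300 of 6668. Histones (7 of 10) and glycolysis and fermentation (15 of 24) reach furthest, while 9 lists have no member.

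Among genes for untranslated RNA, all 6 ribosomal DNA elements in the count range were members, namely ETS2-1 and RDN5-2 to RDN5-6. These sit in or beside a tandem repeat, where a read can match many copies, so their values are uncertain. RDN5-2 stood at 518 and 494 CPM in Rvb1, 603 and 432 in Rvb2, 281 in Pgk1 replicate 2 and 189 to 195 in the inputs, with no overlap between the groups. Its log2 changes were 1.54 ± 0.30 in Rvb1 (adjusted p 0.0244, edgeR) and 1.56 ± 0.30 in Rvb2 (0.0366). The 6 elements had a median log2 of 1.48 in Rvb1 (6 called, beside 18.8% of all windows), 1.49 in Rvb2 (5 called, beside 0.597%) and 0.55 in Pgk1 replicate 2 (none called).

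SCR1 and RPR1, the RNA of ribonuclease P, are transcribed by RNA polymerase III. SCR1 stood at 467 and 361 CPM in Rvb1, 512 and 301 in Rvb2, 202 in Pgk1 replicate 2 and 153 to 166 in the inputs. Its promoter window held 119 and 123 CPM in Rvb1, 153 and 154 in Rvb2, 172 in Pgk1 replicate 2 and 144 to 152 in the inputs. There the Rvb1 values lay below every input, the Rvb2 values just above, and Pgk1 replicate 2 was highest of these. None was called at the promoter, with log2 changes of -0.21 ± 0.09 in Rvb1 (adjusted p 0.0915, edgeR), 0.14 ± 0.09 in Rvb2 (0.276) and 0.24 ± 0.10 in Pgk1 replicate 2 (adjusted p 1). Small nuclear and nucleolar RNA genes gave 16 members of 82 in the count range. SNR17A, for the U3 RNA that guides early cleavage of the ribosomal precursor, stood at 335 and 227 CPM in Rvb1, 326 and 232 in Rvb2, 172 in Pgk1 replicate 2 and 146 to 155 in the inputs. Of these 16, 12 were called higher in Rvb1 at the gene body, beside 18.8% of all windows (median log2 0.66). Over all 82 the median was 0.31, with 33 called higher and 5 lower, beside 18.8% and 14.3% of all windows. At the promoter 3 of 16 were called higher and 1 lower, no more than the 22.5% and 16.5% of all windows (median 0.08).

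Many members had neighbouring numbers on a chromosome arm. Of 266 members with a systematic open reading frame number, 147 fell into 53 runs of equal or neighbouring numbers and 119 stood alone. How often other sets of identifiers form such runs was not counted. The longest run held 14 members, on chromosome XII from YLR155C to YLR162W-A, beside the ribosomal DNA, and includes the 4 copies of the asparaginase gene ASP3. Further runs joined a gene to neighbours with no table entry, such as GPH1 with YPR159C-A, YPR160C-A and YPR160W-A. Windows of such neighbours may overlap, which could not be checked here without a named build, so run members are not independent observations. In 1 set of 6 mitochondrial identifiers (COX1 and the intron genes AI1 to AI5_ALPHA) and in the pair YEL076C and YEL076C-A the counts were equal in all libraries, which leaves 294 distinct profiles.

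Among the 8 outermost numbers of each chromosome arm, 63 of the 291 identifiers in the count range were members (21.6%). Of other open reading frames, 2.90% of those with a table entry and 6.60% of those without were members. Members at arm ends include 5 YRF1 genes, which code for helicases within Y' elements, repeated sequences next to telomeres whose copies share sequence. These members held more reads in the inputs as well, with a median of 204 CPM in the Rvb inputs against 152 CPM for members on the other tabled reading frames. YRF1-8 stood at 284 and 378 CPM in Rvb1, 382 and 413 in Rvb2, 308 in Pgk1 replicate 2 and 204 to 219 in the inputs. Its lowest Rvb1 value lay below Pgk1 replicate 2, unlike at ENO1, HXK1 and PGK1. The 63 members had a median log2 of 0.40 in Pgk1 replicate 2. In Rvb1 it was 0.62 (17 of 63 called higher, beside 18.8% of all windows) and in Rvb2 0.87 (none called, beside 0.597%). At an unadjusted p under 0.05 (edgeR), 37 of the 63 were higher in Rvb1 and 61 in Rvb2, beside 1871 and 1043 of 7035 windows. Over all 291 the Rvb1 median was -0.10, with 29 called higher and 55 lower, beside 18.8% and 14.3% of all windows. HXK1 is counted with these arm end members by its number, although it is no repeat.

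Mitochondrial DNA supplied 8 members of 26 identifiers in the count range. OLI1, for a subunit of the mitochondrial ATP synthase, stood at 180 and 360 CPM in Rvb1, 246 and 407 in Rvb2, 307 in Pgk1 replicate 2 and 142 to 146 in the inputs. The second pulldown of each Rvb protein was above the first, whereas ENO1, HXK1 and HOR7 had the first Rvb pulldowns above the second. The 8 members, of which 6 have the same counts, had the highest class median in Pgk1 replicate 2 (log2 0.89, none called). Their median was 0.90 in Rvb1 (1 called higher, with 18.8% of all windows) and 1.16 in Rvb2 (none called, with 0.597%). In Rvb1 replicate 1 their median was -0.03.

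**Figure D4:**
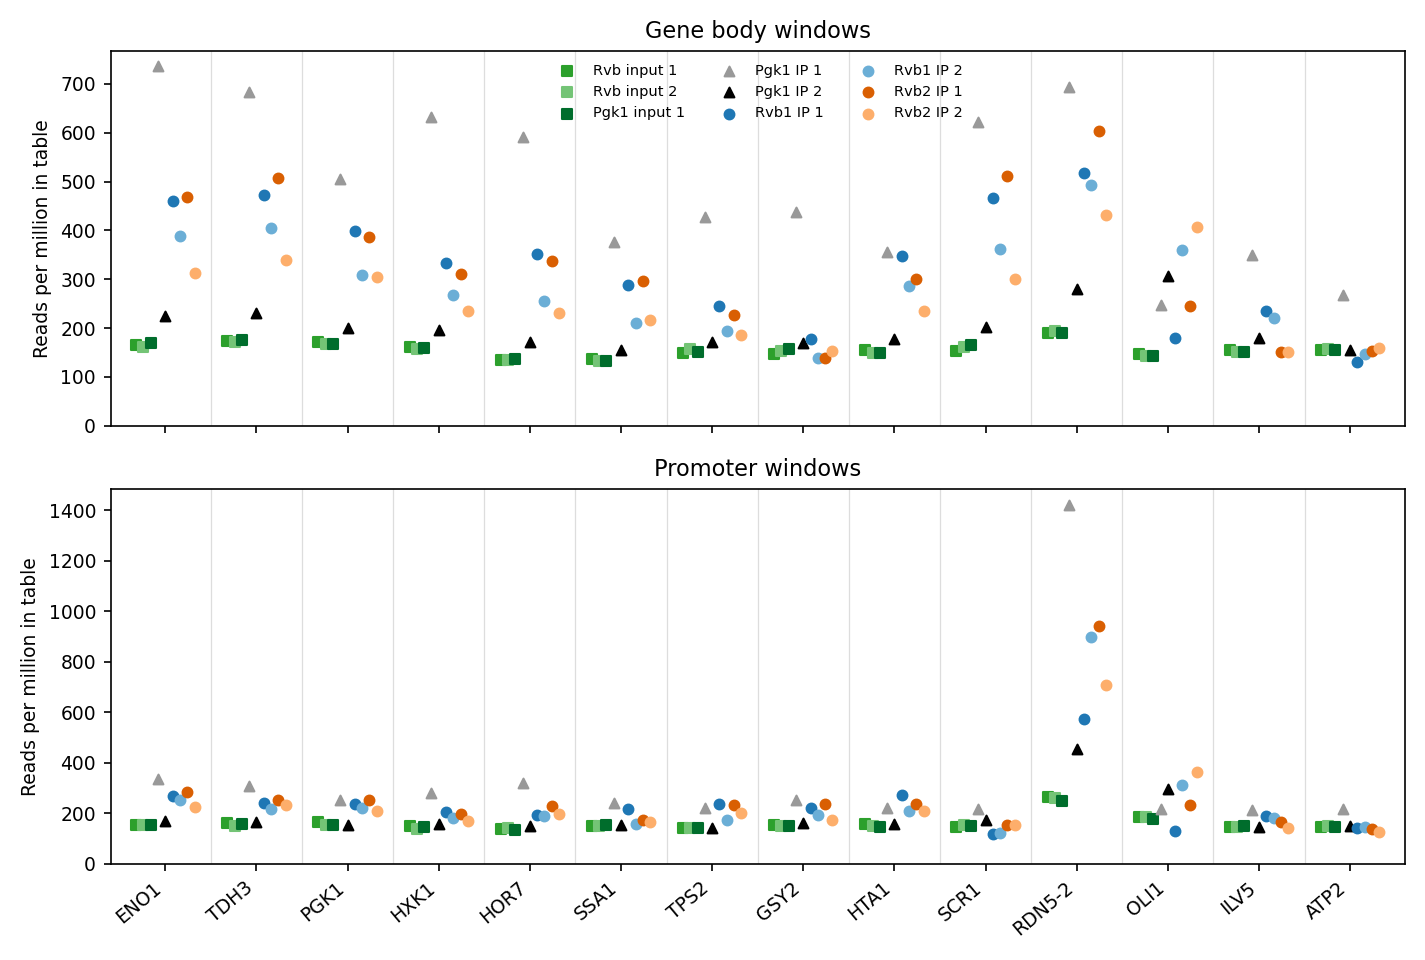
CPM, counts scaled to a table total of 1000000 (y axis), in each of the 9 libraries for 14 members (x axis), in gene body windows (top) and promoter windows (bottom); squares are inputs, triangles Pgk1 pulldowns and circles Rvb pulldowns, one point a library. ENO1, TDH3, HXK1 and HOR7 have the Rvb pulldowns above Pgk1 pulldown replicate 2 and that above the inputs, GSY2 and ATP2 have Rvb pulldowns both above and below the inputs, and RDN5-2 stands higher at its promoter than at its gene body in every pulldown.

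For the tests, the 7 libraries that the ranking ratio did not use were fitted together with edgeR's quasi-likelihood test in 4 groups, and p-values were adjusted over all windows. The 4 comparisons share the Rvb inputs or the Pgk1 library, so their results are given side by side and not as support for each other. Pgk1 replicate 2 is a single library in these fits and is assumed to vary like the other groups.

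Against the Rvb inputs, no member was called at the gene body in Pgk1 replicate 2, where 0.37% of all windows were called higher, and the members' median log2 fold change was 0.22. At an unadjusted p under 0.05 the higher members numbered 7, or 2.33%, against 1.34% of all windows, and 1 was lower; DESeq2 called none at its adjusted threshold, against 0.313% of all windows called higher. By plain order, 253 members (84.3%) had Pgk1 replicate 2 above all 3 inputs, against 21.6% of all windows. Most members thus stood above every input in the second pulldown, by a margin that was small beside the spread between libraries. OLI1 was highest (1.13 ± 0.40), followed by 6 mitochondrial identifiers with the same counts, COX1 and the intron genes AI1 to AI5_ALPHA (0.89). The lowest was YLR302C at -0.78 ± 0.25 (adjusted p 0.99), followed by CTT1 and YIR016W at -0.05.

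In Rvb1 193 members (64.3%) were called higher at the gene body and none lower, against 18.8% and 14.3% of all windows, with a median log2 of 0.76. Both Rvb1 pulldowns lay above both Rvb inputs in 270 members (90.0%), against 27% of all windows. In Rvb2 13 members (4.33%) were called higher and none lower, against 0.597% and 0% of all windows, with a median of 0.79. Both Rvb2 pulldowns lay above both inputs in 293 (97.7%, against 22.8%). At an unadjusted p under 0.05 (edgeR), 246 members (82%) were higher in Rvb1 and 263 (87.7%) in Rvb2, against 1871 and 1043 of 7035 windows. The counts of calls therefore do not measure a difference between Rvb1 and Rvb2. DESeq2 called 236 members in Rvb1 and 246 in Rvb2, against 19.7% and 11% of all windows. The number of calls rests on single libraries. The Rvb1 count was 0 without Rvb1 replicate 1, without either Rvb input and with the Rvb inputs averaged as 1 library. For Rvb2 it was 0 without Rvb2 replicate 1 and without either input, 45 without Rvb2 replicate 2, and 195 or 211 without Rvb1 replicate 1 or 2 (fits that called 597 and 667 of 7035 windows higher), while in these fits the median stayed between 0.62 and 0.88.

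The 13 members called in Rvb2 were ETS2-1, RDN5-2 to RDN5-5, HXT6, HXT7, YCR018C-A and 5 identifiers of the run beside the ribosomal DNA, YLR156C-A, YLR156W, YLR157C-C, YLR157W-E and YLR162W. The lowest members in Rvb1 were YNL337W at -0.24 ± 0.17 (adjusted p 0.265), ATP2 at -0.03 and YJR162C at -0.03, and in Rvb2 they were GSY2, ILV5 (0.10) and YNL337W (0.12). ATP2, for a subunit of the mitochondrial ATP synthase, stood at 131 and 147 CPM in Rvb1, 153 and 159 in Rvb2, 155 in Pgk1 replicate 2 and 155 to 158 in the inputs, although the Pgk1 pulldown that chose it held 268. ILV5, an enzyme of branched amino acid synthesis and a protein of mitochondrial nucleoids, stood at 235 and 220 CPM in Rvb1 but at 151 and 151 in Rvb2, beside 180 in Pgk1 replicate 2 and 151 to 156 in the inputs. Both Rvb1 pulldowns lay above both Rvb2 pulldowns in 8 members (2.67%, against 11.3% of all windows) and below them in 32 (10.7%), close to the 12% of all windows.

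Set against Pgk1 replicate 2, the mean of the Rvb1 and Rvb2 pulldowns was higher at the gene body by a median log2 of 0.50 over the members. Only YLR302C was called (1.39 ± 0.24, adjusted p 0.0138, edgeR), against 0.128% of all windows called higher, while 113 members (37.7%) were higher at an unadjusted p under 0.05, against 13.4%. DESeq2 called 84 members, against 6.21%. All 4 Rvb pulldowns lay above Pgk1 replicate 2 in 212 members (70.7%, against 22.8%) and below it in 4 (1.33%, against 44.9%). The count of calls was 122 without Rvb1 replicate 2, a fit that called 1368 of 7035 windows higher and 1472 lower. YCR013C and UTR5 followed YLR302C at 1.16, and YNL337W was lowest at -0.45 ± 0.18 (adjusted p 0.179).

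YLR302C had an input level that differed between the strains. Its gene body held 146 and 150 CPM in the Rvb inputs but 65.9 in the Pgk1 input, and 180 and 83.7 in the Pgk1 pulldowns. At the promoter window the difference between strains was wider, with 150 and 160 CPM in the Rvb inputs, 1.51 in the Pgk1 input and 16.1 and 5.96 in the Pgk1 pulldowns. The Rvb pulldowns held 83.8 to 119 CPM there. The input chromatin of the Pgk1 strain thus differed at this identifier before any pulldown. When the ranking ratio was taken over the Rvb inputs instead, 280 of the 300 members were again among the 300 highest.

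As shares of each table's own total, the promoter windows of the same identifiers stood less far above input. The members' median log2 over the Rvb inputs was 0.09 in Pgk1 replicate 2, 0.43 and 0.44 in Rvb1 and 0.54 and 0.40 in Rvb2. In each of these pulldowns the gene body exceeded the promoter in 212 to 217 members (70.7% to 72.3%), whereas over all identifiers in the count range this share was 43.7% to 51.8%. The choice by a gene body ratio favours this order, so nothing is read from it. The tables were also scaled apart. Rvb1 replicate 1 held 1993420 promoter counts beside 1568654 at gene bodies, and the Rvb1 input 4342277 beside 4398632. In unscaled counts the members' median log2 of promoter over gene body was 0.015 and -0.020 in Rvb1 and -0.025 and -0.056 in Rvb2. It was -0.038 and -0.047 in the Rvb inputs and -0.10 in Pgk1 replicate 2. All 4 Rvb pulldowns lay above both Rvb inputs in 215 promoters (71.7%, against 23.1% of all windows) and below both in 21 (7%, against 44.3%). At gene bodies these counts were 269 (89.7%, against 19.3%) and 0 (against 48.2%).

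Called at the promoter in Rvb1 were 168 members higher (56.0%, against 22.5% of all windows) and 5 lower (against 16.5%), in Rvb2 2 higher (against 0.398%), namely ETS2-1 and RDN5-2, and in Rvb over Pgk1 replicate 2 1 higher (against 0.0711%, and 0.256% lower), namely YLR302C. In Pgk1 replicate 2 over the Rvb inputs only YLR302C was called, lower by a log2 fold change of -4.66 ± 0.43 (adjusted p 0.000824, edgeR), against 0.0569% of all windows called lower and 0.227% called higher. The medians of these 4 fits were 0.51, 0.58, 0.37 and 0.11. DESeq2 called 195 members in Rvb1 (against 39.3% of all windows, either way), 199 in Rvb2 (13.9%), 55 in Rvb over Pgk1 replicate 2 (7.28%) and 1 in Pgk1 replicate 2 (0.398%). The Rvb1 count at the promoter was 3 without Rvb1 replicate 1 and 0 without either Rvb input, and the Rvb2 count 205 or 215 without Rvb1 replicate 1 or 2. Those 2 fits called 1089 and 1167 of 7034 windows higher and 802 and 815 lower. For Rvb over Pgk1 the count was 118 without Rvb1 replicate 2, where 1439 windows were called higher and 1634 lower.

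Groups of members differed in how the windows compared. All 9 reserve carbohydrate members were called higher at the promoter in Rvb1, beside 22.5% of all windows, with a median log2 of 0.83 beside 0.79 at the gene body, and the 7 histone members had 0.75 beside 0.79. Glycolytic members had 0.65 at the promoter beside 1.10 at the gene body, and small nucleolar RNA members 0.08 beside 0.66. Promoters and gene bodies were fitted and scaled apart, so sizes are not on a common scale between the windows. The 5 members called lower at the promoter in Rvb1, named here after their values were seen, were YPR108W-A, YOL013W-B, YGL188C, YJL152W and SNR13. YJL152W stood at -0.66 ± 0.17 there (adjusted p 0.0266, edgeR) but at 0.60 ± 0.17 at the gene body (adjusted p 0.0299). RRT15, at the end of the run beside the ribosomal DNA, went the other way, with 1.47 ± 0.30 at the promoter (adjusted p 0.0263) and 0.81 ± 0.24 at the gene body (adjusted p 0.0307).

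**Figure D5:**
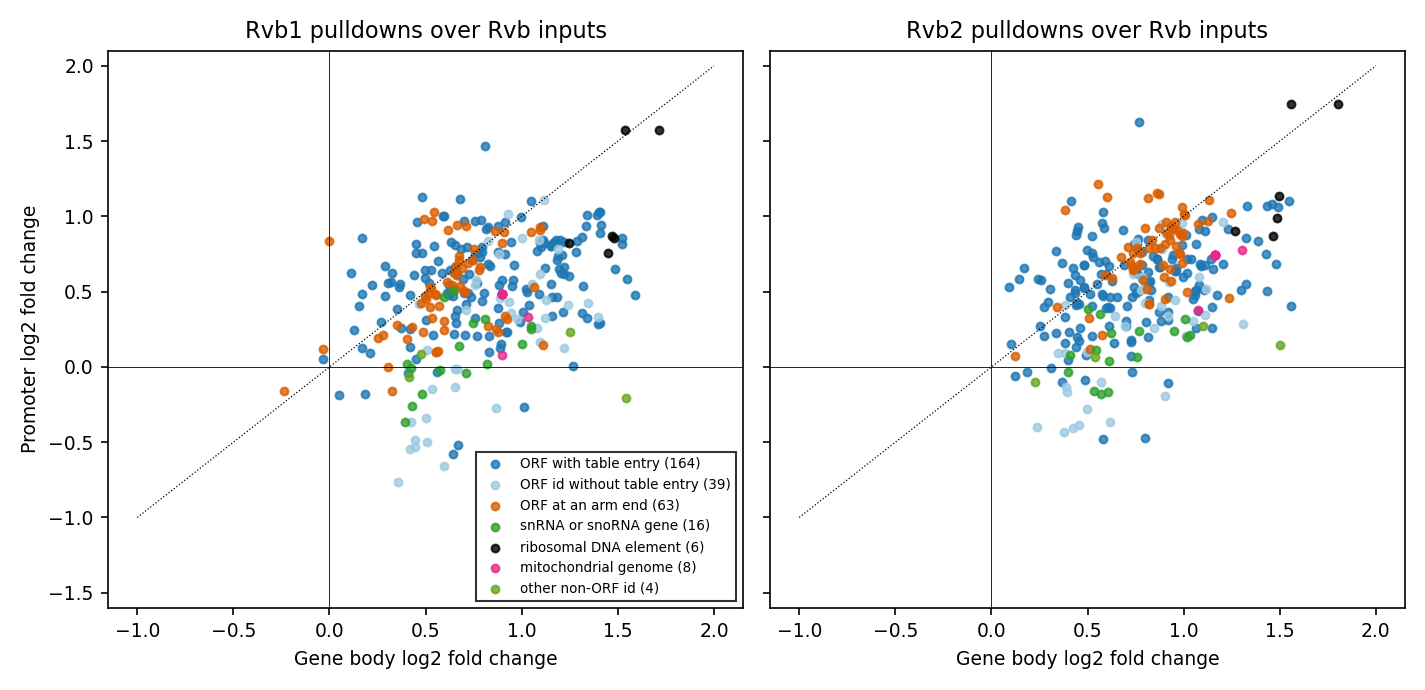
Log2 fold change over the Rvb inputs at the gene body (x axis) and at the promoter (y axis) of each of the 300 members, for Rvb1 (left) and Rvb2 (right), coloured by class of identifier with the number in brackets; the dotted line marks equal change. Most members lie below the line, snRNA and snoRNA genes lie near 0 at the promoter, and members at arm ends lie along the line. Gene body and promoter windows were scaled apart.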

How the data were processed

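The authors deposited raw read counts for windows of 500 bp, in 1 table of gene bodies and 1 of promoters. Per the submitters' processing notes, the tools were bedtools, deepTools, Picard, SAMtools, Bowtie2 and FastQC. The genome build, where the windows lie, and how duplicates and reads with several matches were handled: not given in the sources used here. Of the 7036 identifiers, 6081 were matched to the R64 table of RefSeq genes, and 233 of the 300 members; the rest are printed as the files name them. No coordinates or sequences are given. Columns of other samples numbered 0.

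CPM are counts scaled to a table total of 1000000. Log2 values over the Rvb inputs use shares of the table's total with 2 counts added. Tests used edgeR 4.0.16 (R 4.3.3, limma 3.58.1): filterByExpr, TMM within each table, a quasi-likelihood fit of 7 libraries in 4 groups with 3 residual degrees of freedom, and Benjamini-Hochberg adjustment over 7035 gene body or 7034 promoter windows, called under 0.05. The standard error is the log2 fold change divided by the square root of F. The fit was tested on simulated data. DESeq2 1.42.0, other scalings, filters, controls and member numbers, and leaving out each library were alternatives.

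The members, the gene lists and the tests were chosen with earlier results of these data known, so no count over a list is independent evidence. The genes named are the 10 highest by the ranking, the 5 highest and 5 lowest in Pgk1 replicate 2, the 3 highest and 3 lowest of each other fit, the 2 highest ranked of each list, and those at the edge; not all are printed, and other genes were named after their values were seen. Intervals cover the spread between libraries and counting error only.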

Additional observations from a re-analysis of the deposited data

Results flagged for a closer look

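A few members named in the report had both pulldowns of a protein on one side of the mean Rvb input and both of another protein on the other side. These differences were not tested. Gene body differences from Pgk1 are left out, since Pgk1 pulldown replicate 1 chose the members there; at promoters the difference from Pgk1 replicate 2 alone is given as well. At the gene body of ILV5 the mean log2 over the Rvb inputs was higher in Rvb1 than in Rvb2 by 0.58. At the promoter of SCR1, Rvb1 minus Rvb2 was -0.34, and Rvb1 minus Pgk1 was -0.67, or -0.50 from replicate 2 alone. At the promoter of YNL337W, near the left end of chromosome XIV, Rvb1 minus Pgk1 was -0.64, or -0.28 from replicate 2. At the promoter of YCR013C, the neighbour of PGK1, Rvb1 minus Pgk1 was 0.59 (0.36 from replicate 2) and Rvb2 minus Pgk1 was 0.54 (0.31 from replicate 2). At the promoter of ATP2, Rvb2 minus Pgk1 was -0.44, or -0.18 from replicate 2.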

How the results depend on the processing

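No alternative turned the direction of a median. When each library was left out in turn, the members' median log2 at gene bodies ranged from 0.21 to 0.23 in Pgk1 replicate 2, 0.70 to 0.84 in Rvb1, 0.62 to 0.88 in Rvb2 and 0.44 to 0.57 in Rvb over Pgk1, and at promoters from 0.11 to 0.13, 0.50 to 0.53, 0.47 to 0.64 and 0.32 to 0.40. In the same order the members called ranged from 0 to 1, 0 to 228, 0 to 211 and 1 to 122 at gene bodies and from 1 to 2, 0 to 191, 0 to 215 and 1 to 118 at promoters. With the library totals of the table the medians at gene bodies were 0.62, 0.66 and 0.41 in Rvb1, Rvb2 and Rvb over Pgk1, and 0.43, 0.48 and 0.30 at promoters; Rvb2 calls were 3 and 0. With totals over both tables they were 0.47, 0.56 and 0.30 at gene bodies, where the median of all windows in Rvb1 moved from -0.02 to -0.30, with 0 calls in Rvb2 and 1 in Pgk1 replicate 2, and 4 Rvb2 calls at promoters. The 150 highest gave 0.90 and 0.60 for Rvb2 and Rvb over Pgk1 at gene bodies and 0.64, 0.68 and 0.45 at promoters for Rvb1, Rvb2 and Rvb over Pgk1. The 600 highest gave 0.12, 0.64 and 0.58 for Pgk1 replicate 2, Rvb1 and Rvb2 at gene bodies and 0.055, 0.42, 0.44 and 0.31 at promoters, Rvb over Pgk1 last.

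Calls in Rvb1 and Rvb2 were 0 at either window with a fold threshold of 1.5, with each pulldown against its own input, and with the Rvb inputs averaged as 1 library, which was chosen after seeing the data; the last 2 leave 1 input library a group. The fold threshold also gave 0 for Rvb over Pgk1 at gene bodies. Testing only windows in the count range gave 0 for Rvb2 at either window and 0 for Rvb over Pgk1 at gene bodies. DESeq2 called 246 and 199 in Rvb2 and 84 and 55 in Rvb over Pgk1. A robust spread gave 21 for Rvb2 at promoters, and a correction for the position limit gave 2 for Rvb2 at gene bodies. The cause of these moves was not tested. What a replicate number shares is not in the labels. Over the identifiers in the count range, replicate 1 minus 2 in Rvb1 correlated with that in Rvb2 at 0.70 for gene bodies and 0.74 for promoters, and the pulldowns alone with a replicate block called 136 and 127 members in Rvb over Pgk1, against 1 and 1 without the block. Of all windows the block fits called 907 higher and 112 lower at gene bodies and 1063 and 403 at promoters. Of the values of single named members under the alternatives, 7125 kept their side of the threshold, 522 lost the call and 402 gained it. No value called in the main fit turned sign, and the sign of the others was not checked.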
